A study of Mus musculus and Homo sapiens with 32 samples.

Results

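Obstructed kidneys given LY2109761 were compared between mice labelled Pcmt1 tKO and mice labelled Pcmt1 fl/fl. The comparison rests on 6 RNA libraries, 3 per genotype, chosen by genotype and treatment label from the 18 libraries of an obstruction experiment and the 32 samples of the series. The kidneys of both groups had undergone unilateral ureteral obstruction (UUO), and both groups had received LY2109761. The controls of the comparison therefore carried the injury and the drug too. The fl/fl libraries are numbered 1, 3 and 4 and the tKO libraries 1, 2 and 3. Another 6 libraries came from obstructed fl/fl and tKO kidneys with DMSO in place of the drug, and 6 from sham-operated kidneys with DMSO. The abbreviation tKO, the Cre driver, and the age and sex of the animals are not given in the sources used here. Nor do the labels say whether the replicates are separate animals. A p-value here therefore reflects spread among libraries only, and that spread may be technical.

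Pcmt1 encodes a methyltransferase that starts the repair of isoaspartyl residues, a form of protein damage that accumulates with age. Ureteral obstruction injures the tubules and leads to inflammation and scarring. Transforming growth factor β (TGF-β) ligands are secreted in latent form, bind a pair of receptor kinases and act through Smad2, Smad3 and Smad4 to raise matrix genes, while Smad7 is an inhibitor of the pathway. LY2109761 inhibits the kinases of the TGF-β receptors.

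Library totals were 13015669 to 17297047 counts in fl/fl and 15345509 to 17549073 in tKO. Levels are given as CPM, depth-scaled counts after TMM normalization, and log2 fold changes as tKO minus fl/fl with their standard error (SE) from edgeR's quasi-likelihood fit. A gene was called at a Benjamini-Hochberg adjusted p under 0.05. Mitochondrially encoded genes held 13.7% ± 2.35 of counts (SD, n = 3) in fl/fl and 15.6% ± 3.25 in tKO (SD, n = 3), a difference within the spread (exact two-sided permutation p = 0.6, smallest possible 0.1). All 36 proximal tubule and all 12 podocyte markers passed the count filter, but a gene can pass it through the sham libraries alone. The summed level of the proximal tubule markers was 11280 to 15730 CPM in fl/fl and 9458 to 14490 CPM in tKO. For the podocyte markers it was 390 to 494 CPM in fl/fl and 379 to 548 CPM in tKO. Pairs of libraries correlated at 0.959 to 0.965 within a genotype and 0.939 to 0.965 between them (log2 CPM, across genes). In 433 genes of the fl/fl group and 396 of the tKO group, replicates spanned more than 4-fold, so several genes below have a library far from its group.

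The Pcmt1 level separated the labels poorly. Pcmt1 (chromosome 10, 7629373 to 7681136, GRCm38) was at 31.3, 25.7 and 39.0 CPM in the fl/fl libraries and at 23.1, 27.97 and 27.6 CPM in the tKO libraries. The groups overlapped, and the difference of -0.29 (SE 0.23) did not pass the test (edgeR adjusted p = 0.54). With DMSO the difference was -0.61 (SE 0.23, edgeR adjusted p = 0.082). The deleted part of the gene is not given in the sources used here, and counts over the whole gene may miss it, so these values do not check the genotype closely. In bulk kidney, fewer cells of a type and less RNA per cell cannot be told apart.

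Of 19256 genes tested, 171 were higher in tKO (0.888%) and 402 were lower (2.09%). The median log2 fold change over all tested genes was 0.02. At an unadjusted p under 0.05 there were 3767 genes. Between the 3 tKO and the 3 fl/fl libraries, 27.2% of all tested genes did not overlap, against 570 of the 573 called genes. The same contrast with DMSO called 1593 genes higher (8.27%) and 1858 lower (9.65%). The number of calls depended on single libraries: it was 85 without fl/fl replicate 1, 23 without fl/fl replicate 3, 36 without tKO replicate 2 and 14 without tKO replicate 3. Of 48 called genes examined individually, those 4 fits kept the call of 10, 5, 6 and 4. Scaling by column totals alone called 11 genes higher and 12 lower. Of 17 alternative settings, all kept the calls of Eeig2 and Stim1, and 16 kept those of Lum, Men1 and Tgtp2.

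**Figure D1:**
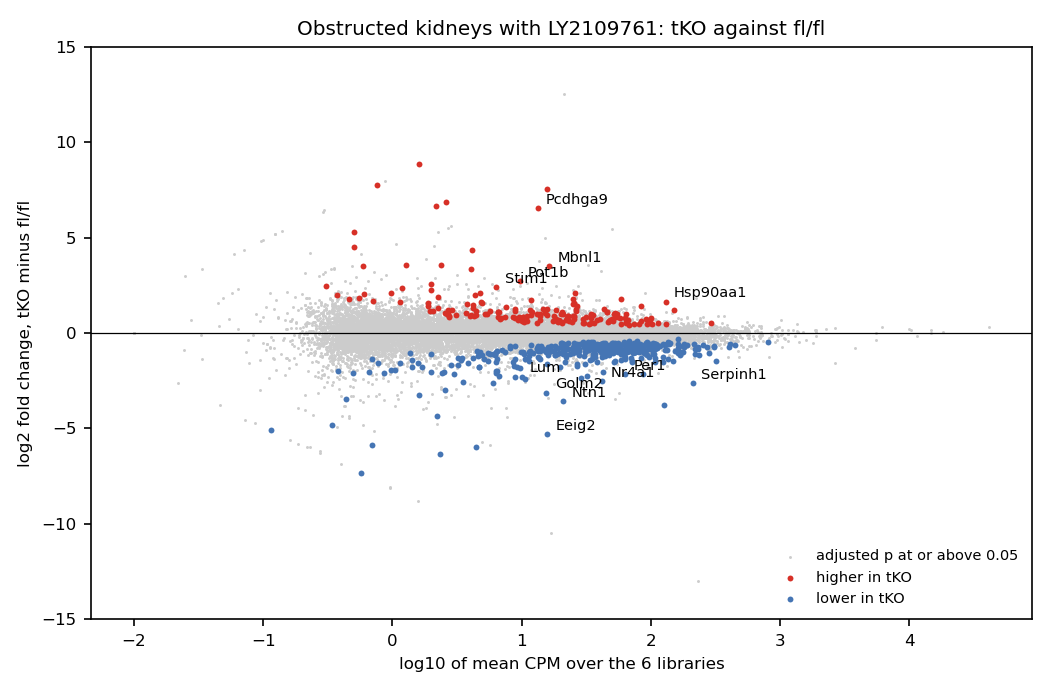
Log2 fold change (tKO minus fl/fl, vertical) against the log10 of the mean CPM of the 6 libraries with LY2109761 (horizontal), 1 point per tested gene. Red points are the 171 genes called higher and blue points the 402 called lower; Eeig2 stands at -5.32.

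The largest decrease among genes with a mean of at least 5 CPM was that of Eeig2, also known as Fam102b, on chromosome 3 (108970997 to 109027607, GRCm38). Its level was 31.6, 32.1 and 28.9 CPM in fl/fl and 0.752, 0.641 and 0.912 CPM in tKO. All 3 tKO libraries were far below every fl/fl library, with a log2 fold change of -5.32 (SE 0.35, edgeR adjusted p = 1.8e-06). The obstructed DMSO libraries of both genotypes stood between 11.8 and 38.2 CPM, so the low level was seen in the tKO libraries with the drug and in no other obstructed library.

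The other large decreases included 5 genes described here singly, since the matrix list had 1 of 28 genes lower and the basement membrane list 0 of 20. Serpinh1, the collagen chaperone HSP47, was at 404, 417 and 268 CPM in fl/fl and at 85.4, 54.5 and 36.1 CPM in tKO. The groups did not overlap, which the rule for naming these genes required (log2 -2.63, SE 0.65, edgeR adjusted p = 0.042). With DMSO, Serpinh1 spanned 77.2 to 384 CPM within the fl/fl group alone. Lum, which encodes the collagen-binding proteoglycan lumican, was at 18.5, 22.1 and 9.31 CPM in fl/fl and at 3.29, 3.40 and 3.54 CPM in tKO (log2 -2.28, SE 0.35, edgeR adjusted p = 0.0085). The tKO values were close together, and fl/fl replicate 4 lay nearest to them. Meg3, a long noncoding RNA of stromal cells, was at 12.2, 27.0 and 5.33 CPM in fl/fl and at 3.67, 2.07 and 3.22 CPM in tKO (log2 -2.31, SE 0.56, edgeR adjusted p = 0.042). Ntn1, encoding the guidance protein netrin-1, fell from 34.6, 35.3 and 46.1 CPM to 6.35, 1.53 and 1.77 CPM (log2 -3.58, SE 0.87, edgeR adjusted p = 0.040). Golm2, encoding a Golgi membrane protein, was at 29.2, 26.1 and 28.7 CPM in fl/fl and at 2.96, 2.07 and 4.61 CPM in tKO (log2 -3.12, SE 0.71, edgeR adjusted p = 0.031). In fl/fl with DMSO, Golm2 was at 3.88 to 4.77 CPM, Lum at 2.67 to 3.54 CPM and Meg3 at 1.715 to 2.18 CPM. For these genes fl/fl with DMSO lay below fl/fl with the drug and near tKO with the drug. They were named partly because their fl/fl levels with the drug were high, so this order is not independent of the choice. Ntn1 spanned 6.75 to 63.6 CPM in fl/fl with DMSO.

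Adipose markers differed between the same libraries. Adipoq, encoding adiponectin, was at 4.14 and 6.14 CPM in fl/fl replicates 1 and 3, at 0.0969 CPM in fl/fl replicate 4 and at 0.141 to 0.268 CPM in tKO. The summed level of the 10 adipose markers tested was 121 to 225 CPM in fl/fl and 72.0 to 101 CPM in tKO, with a median log2 fold change of -1.80 and no member called. Lum and Meg3 were highest in the 2 fl/fl libraries with high Adipoq. The part of adipose RNA in these decreases was not tested.

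No gene at the core of the TGF-β pathway passed the test with the drug. None of the 12 ligand and latency genes, 9 receptor genes or 15 Smads and Smad regulators was called in either direction, with medians of -0.06, 0.13 and -0.02. The ligand Tgfb1 was at 79.8, 65.2 and 81.5 CPM in fl/fl and at 87.4, 70.2 and 76.1 CPM in tKO (log2 0.05, SE 0.21, edgeR adjusted p = 0.93). Per length, Tgfb1 was the most abundant of the 3 ligands in fl/fl, at 15.8 ± 2.14 FPKM (SD, n = 3) against 4.63 ± 0.72 for Tgfb3 and 2.26 ± 0.73 for Tgfb2. The receptor Tgfbr2 was at 122, 123 and 149 CPM in fl/fl and at 138, 206 and 187 CPM in tKO (log2 0.43, SE 0.25, edgeR adjusted p = 0.37). Tgfbr1, the type I receptor, was at 6.01 CPM in fl/fl replicate 3 against 84.1 and 101 CPM in the other fl/fl libraries, a spread that hides any moderate difference (log2 -0.11, SE 0.77). Smad7 stood at 19.2 to 25.8 CPM in fl/fl and at 21.3 to 29.2 CPM in tKO. These tests did not pass, which does not show that the levels are equal.

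Among 21 TGF-β responsive genes, 3 fell and none rose, with a median of -0.21. Id3, a helix-loop-helix inhibitor that bone morphogenetic protein signals also induce, was at 230, 214 and 267 CPM in fl/fl and at 143, 112 and 107 CPM in tKO (log2 -0.97, SE 0.17, edgeR adjusted p = 0.015). Its relative Id1 was at 54.0, 77.4 and 75.0 CPM in fl/fl and at 39.5, 35.2 and 25.0 CPM in tKO (log2 -1.05, SE 0.22, edgeR adjusted p = 0.026). Ccn2, the matricellular protein CTGF, was at 102, 115 and 158 CPM in fl/fl and at 79.1, 54.4 and 42.7 CPM in tKO (log2 -1.09, SE 0.27, edgeR adjusted p = 0.042). The groups did not overlap for any of the 3, which held for 570 of the 573 called genes.

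Many fibrillar collagen and matrix genes were higher in tKO with DMSO, whereas Lum was the only 1 called with the drug. With DMSO 13 of 28 were higher in tKO and none lower, with a median of 0.77. Over all tested genes 8.27% were called higher with DMSO. With LY2109761 none was higher, Lum was lower, and the median was -0.03. Over all tested genes only 0.888% were called higher and 2.09% lower with the drug, so few calls would be found in any list of 28. The interaction tests whether the genotype difference itself differed between drug and DMSO. It called 7 of the 28 lower and none higher, against 6.8% lower and 7.05% higher over all tested genes. Col1a1, the main chain of type I collagen, was at 398, 406 and 341 CPM in fl/fl and at 545, 304 and 364 CPM in tKO with the drug (log2 0.08, SE 0.27, edgeR adjusted p = 0.90). With DMSO it was at 262, 317 and 240 CPM in fl/fl and at 521, 558 and 917 CPM in tKO, and the interaction was -1.20 (SE 0.38, edgeR adjusted p = 0.046). Of 20 myofibroblast and stromal genes, 1 was lower with the drug, 7 were higher with DMSO, and 6 were lower in the interaction.

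Tubule genes were lower in tKO mainly with DMSO. With DMSO 18 of 36 proximal tubule genes and 16 of 33 fatty acid oxidation genes were lower in tKO, against 9.65% of all tested genes. With the drug only Amn, a receptor subunit for protein uptake (log2 -0.64, edgeR adjusted p = 0.043), and Etfb, an electron transfer flavoprotein subunit (log2 -0.94, edgeR adjusted p = 0.035), were lower in these lists. The interaction called 8 proximal tubule genes and 7 fatty acid oxidation genes higher. Over all tested genes 2.09% were called lower with the drug, and the interaction called 7.05% higher. Havcr1, the injury marker KIM-1, was at 862, 847 and 982 CPM in fl/fl and at 804, 632 and 980 CPM in tKO with the drug (log2 -0.16, SE 0.23, edgeR adjusted p = 0.76). With DMSO it was at 1691, 1418 and 1225 CPM in fl/fl and at 623, 441 and 445 CPM in tKO, with an interaction of 1.37 (SE 0.33, edgeR adjusted p = 0.016). None of 26 tubular injury genes, 16 loop and distal tubule genes, 16 collecting duct genes, 12 podocyte genes or 15 endothelial genes was called with the drug.

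**Figure D2:**
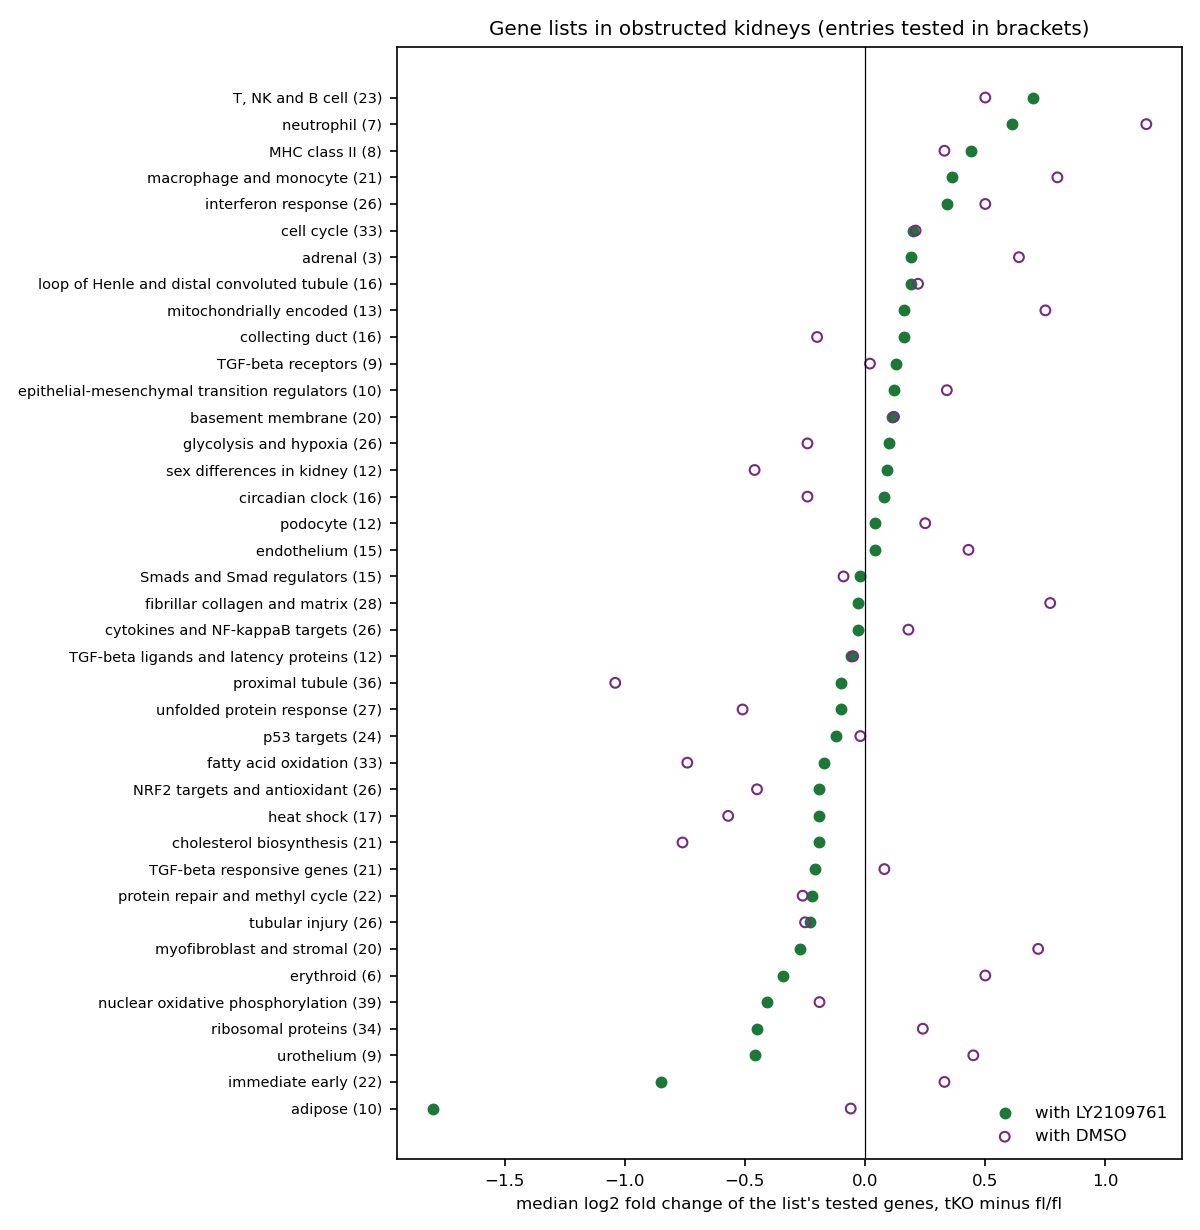
Median log2 fold change (tKO minus fl/fl) of each gene list with LY2109761 (filled) and with DMSO (open), with the number of entries tested in brackets. Fibrillar collagen and matrix genes stand at -0.03 with the drug and 0.77 with DMSO, and immediate early genes at -0.85 and 0.33.

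Immediate early genes, which cells switch on within minutes of a stimulus, included 3 decreases in tKO with the drug. Of 22 such genes 3 fell, none rose, and 19 had a fold change below 0, with a median of -0.85. Nr4a1, an orphan nuclear receptor on chromosome 15, was at 87.0, 67.7 and 61.2 CPM in fl/fl and at 14.6, 11.2 and 11.5 CPM in tKO (log2 -2.53, SE 0.61, edgeR adjusted p = 0.040). Dusp1, a phosphatase that switches off MAP kinases, was at 91.0, 99.4 and 113 CPM in fl/fl and at 39.2, 34.4 and 48.2 CPM in tKO (log2 -1.32, SE 0.33, edgeR adjusted p = 0.045). Ier2 fell from 86.2, 91.0 and 80.6 CPM to 50.3, 33.2 and 34.3 CPM (log2 -1.13, SE 0.28, edgeR adjusted p = 0.043). In each of the 3 genes every tKO library was below every fl/fl library, but 570 of the 573 called genes did not overlap. The interaction also passed, though it uses the same libraries with the drug and is not separate support. With DMSO the 3 differences were 1.53, 0.37 and 0.51 and none passed. For all 3 genes the fl/fl libraries with the drug also lay above the 3 fl/fl libraries with DMSO. A call of lower in tKO favours high values in those fl/fl libraries, so this order is not independent of the call.

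Most stress and clock genes were not called. Of 27 unfolded protein response genes 2 fell (median -0.10), of 24 p53 targets 2 fell (median -0.12), and of 16 clock genes 2 fell (median 0.08), with none higher in the 3 lists. Per1, a repressor of the circadian clock, was at 87.4, 106 and 116 CPM in fl/fl and at 19.7, 16.3 and 33.5 CPM in tKO (log2 -2.15, SE 0.42, edgeR adjusted p = 0.021). Plk3, a stress-responsive kinase, was at 63.6, 65.6 and 77.5 CPM in fl/fl and at 21.8, 12.8 and 15.6 CPM in tKO (log2 -2.04, SE 0.47, edgeR adjusted p = 0.031). Gadd45g, a growth arrest and DNA damage gene, was at 105, 183 and 136 CPM in fl/fl and at 41.1, 29.4 and 24.6 CPM in tKO (log2 -2.15, SE 0.42, edgeR adjusted p = 0.021). For all 3 genes the fl/fl libraries with the drug also lay above the 3 fl/fl libraries with DMSO, an order that the choice of called decreases favours. Nfil3, a clock-linked transcription factor, fell by 1.14 on the log2 scale (edgeR adjusted p = 0.045). The stress genes Ddit3 and Chac1 of the unfolded protein response fell by 0.72 and 2.02, and the p53 target Bax by 0.65 (edgeR adjusted p = 0.032, 0.026 and 0.026).

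**Figure D3:**
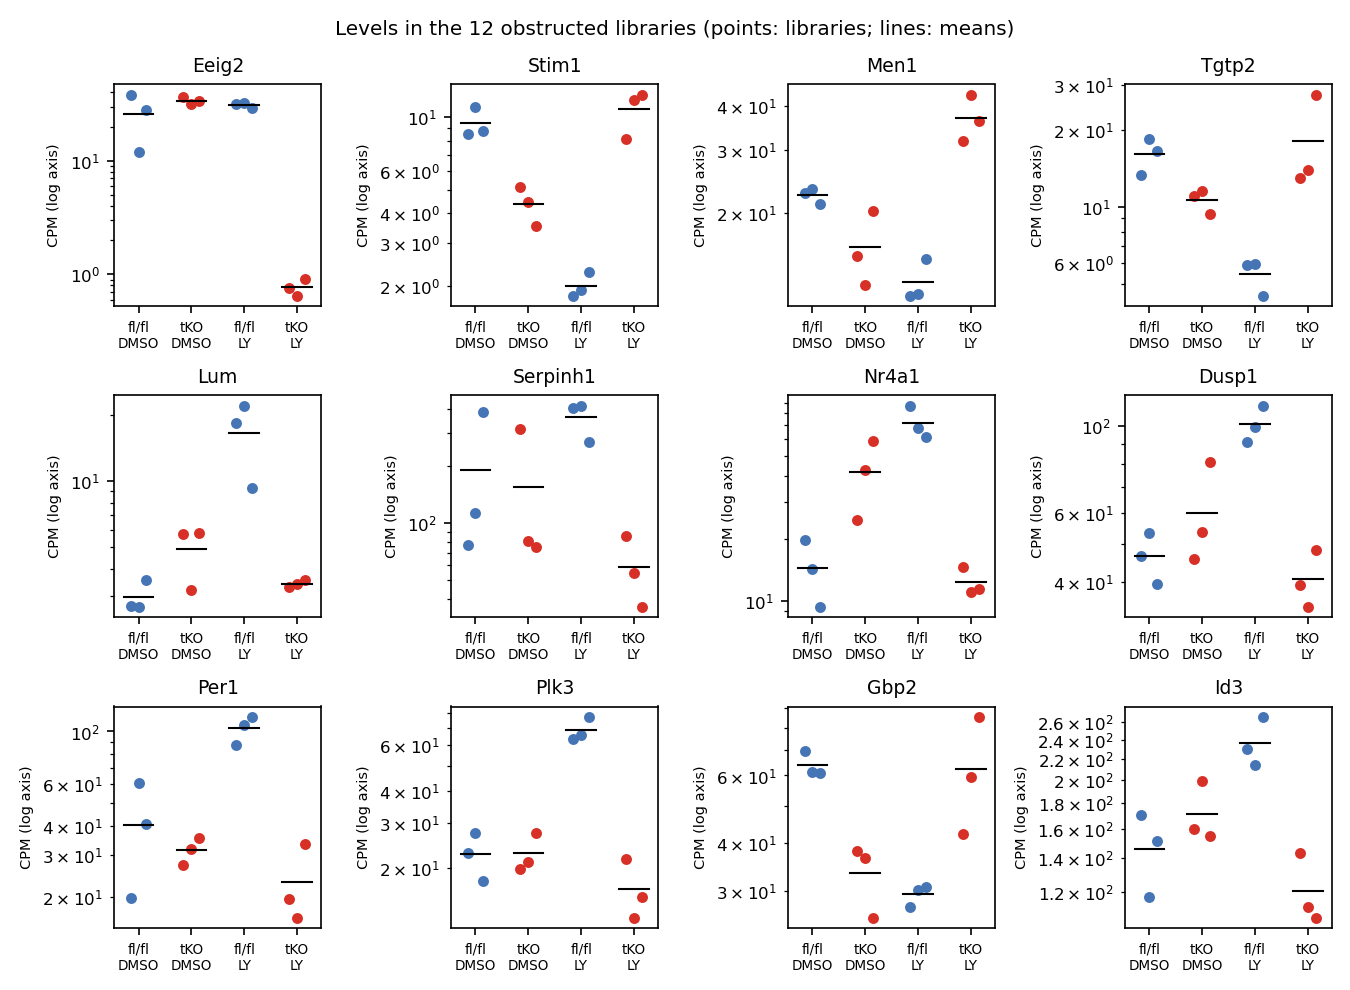
CPM (log axis) of 12 genes in the 4 obstructed groups, where LY stands for LY2109761; points are libraries and lines are means of 3. Eeig2 is low only in the tKO libraries with the drug, and Nr4a1, Dusp1, Per1 and Plk3 are highest in the fl/fl libraries with the drug.

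Of 7 genes that fell, chosen after their values were seen, the 250 bases upstream of the annotated start are shown for the 3 whose windows hold at least 2 copies of the motif TGACG. The choice of these 3 therefore rests on the motif, and their matches are no finding. Sequences are those of RefSeq on GRCm38.p6, on the gene's strand. Capitals mark TGACG on either strand, the core of the element bound by CREB and ATF factors.
Nr4a1, chr15:101266596-101266845, plus strand: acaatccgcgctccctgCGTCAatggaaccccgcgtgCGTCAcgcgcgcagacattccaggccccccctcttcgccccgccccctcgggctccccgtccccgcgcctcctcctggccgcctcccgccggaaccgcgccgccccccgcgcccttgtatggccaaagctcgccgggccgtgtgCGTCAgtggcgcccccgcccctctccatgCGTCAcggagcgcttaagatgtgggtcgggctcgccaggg
Dusp1, chr17:26508473-26508722, minus strand: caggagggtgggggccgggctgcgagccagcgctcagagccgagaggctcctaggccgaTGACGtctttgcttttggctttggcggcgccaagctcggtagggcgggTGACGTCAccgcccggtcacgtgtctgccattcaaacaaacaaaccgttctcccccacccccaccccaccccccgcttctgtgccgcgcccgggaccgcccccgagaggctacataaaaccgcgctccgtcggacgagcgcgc
Plk3, chr4:117133964-117134213, minus strand: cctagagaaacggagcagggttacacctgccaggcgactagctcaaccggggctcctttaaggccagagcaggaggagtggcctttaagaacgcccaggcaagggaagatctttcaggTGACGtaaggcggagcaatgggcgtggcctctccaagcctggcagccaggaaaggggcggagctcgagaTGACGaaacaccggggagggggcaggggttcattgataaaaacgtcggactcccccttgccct
The Nr4a1 window held 4 matches, the Dusp1 window 3, of which 2 overlap in a palindrome, and the Plk3 window 2. Of 32851 windows of this length, 17.8% held at least 1 match and 3.9% at least 2. A window was found for 6 of 7 genes looked up (these 3, Ier2, Per1, Gadd45g and Nfil3), and 5 of the 6 had a match: Per1 had 1 in each of 2 windows, Nfil3 had 1 and Gadd45g had 0. A match describes the letters of the window and says nothing about binding.

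Genes of the ribosome and of oxidative phosphorylation were lower in tKO with the drug by small amounts. Of 34 ribosomal protein genes in the list 8 fell and none rose (median -0.45), and of 39 nuclear genes of oxidative phosphorylation 9 fell and none rose (median -0.41). Rps18 was at 130, 136 and 93.6 CPM in fl/fl and at 53.9, 47.5 and 45.1 CPM in tKO (log2 -1.30, SE 0.26, edgeR adjusted p = 0.021). Ndufa5, a subunit of complex I, was at 84.2, 89.3 and 66.1 CPM in fl/fl and at 43.5, 39.4 and 32.9 CPM in tKO (log2 -1.05, SE 0.21, edgeR adjusted p = 0.023). Over all 85 protein-coding ribosomal protein genes tested, 20 fell, 80 had a fold change below 0, and the summed level was 13260 to 14050 CPM in fl/fl and 9584 to 11040 CPM in tKO. With DMSO 18 of the 85 were higher and 1 lower. The oxidative phosphorylation genes were lower in tKO with DMSO too, where 11 of 39 fell and none rose (median -0.19). Ribosomal protein pseudogenes also fell, 22 of 126 with 3 higher, and near-identical copies can share reads, so values of single members are uncertain. None of the 13 mitochondrially encoded subunits was called.

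Fold changes moved with gene length. In the tenth of genes with the shortest models (up to 1177 bases, from the ratio of count to FPKM) the median log2 fold change was -0.16, with 33 genes called higher and 116 lower. In the tenth with the longest models (over 13611 bases) it was 0.12, with 23 higher and 10 lower. With DMSO the 2 medians were 0.08 and 0.06. Among the fl/fl libraries, replicate 1 differed most between short and long genes and replicate 4 least. After a length trend was removed from each library, 553 genes were called, 472 of them among the 573. With that correction 7 of 34 ribosomal protein genes and 7 of 39 oxidative phosphorylation genes were lower, with medians of -0.34 and -0.35.

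**Figure D4:**
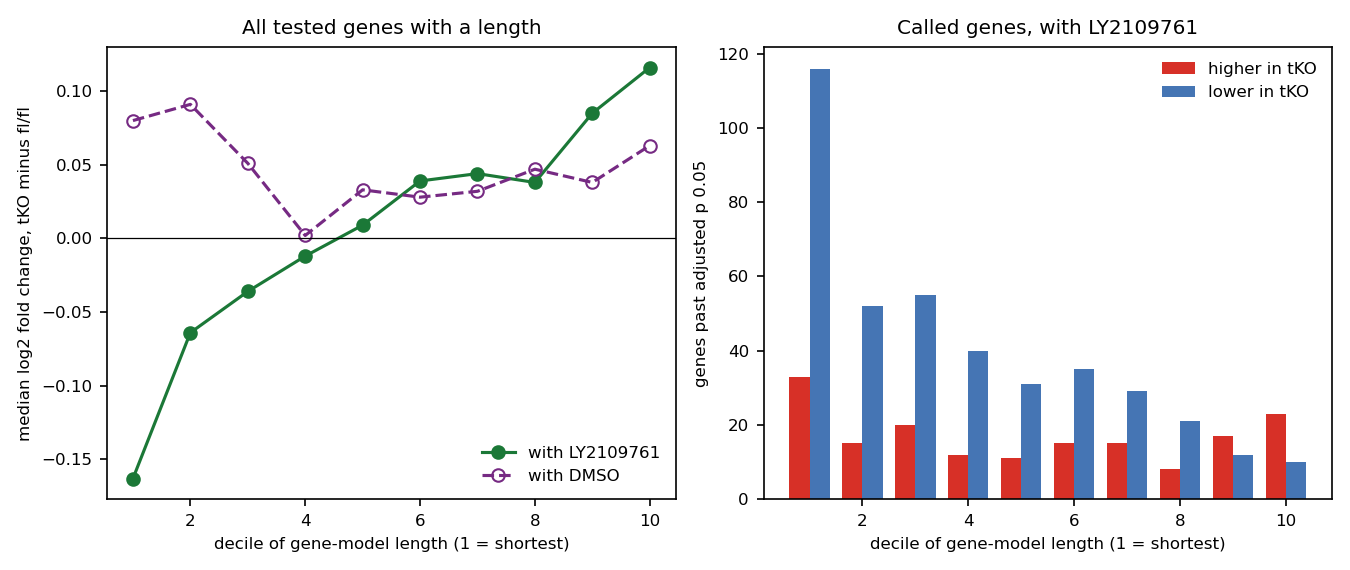
Left, median log2 fold change (tKO minus fl/fl) in 10 groups of tested genes by gene-model length, with LY2109761 (filled) and DMSO (open). Right, the number of genes called with LY2109761 in each group; the shortest group holds 33 higher and 116 lower, the longest 23 and 10.

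Among the increases, the call of Stim1 was kept in all 17 settings and those of Men1 and Tgtp2 in 16. Stim1, the calcium sensor of the endoplasmic reticulum (chromosome 7, 102267806 to 102437319, GRCm38), was at 1.81, 1.91 and 2.28 CPM in fl/fl and at 8.13, 11.8 and 12.4 CPM in tKO (log2 2.43, SE 0.35, edgeR adjusted p = 0.0069). Men1, encoding the chromatin-associated tumour suppressor menin, was at 11.7, 11.9 and 14.9 CPM in fl/fl and at 31.7, 42.9 and 36.2 CPM in tKO (log2 1.52, SE 0.21, edgeR adjusted p = 0.0061). With DMSO both were lower in tKO, by -1.11 and -0.48, of which only the Stim1 difference passed (edgeR adjusted p = 0.030). Mbnl1, a splicing regulator, was at 2.02, 1.98 and 3.73 CPM in fl/fl and at 29.7, 24.9 and 35.3 CPM in tKO (log2 3.53, SE 0.65, edgeR adjusted p = 0.018). Pot1b, which protects telomere ends, rose by 2.71 (SE 0.48, edgeR adjusted p = 0.015). Coq8a, of coenzyme Q synthesis, rose by 2.08 and the ceramidase gene Acer3 by 1.80 (edgeR adjusted p = 0.034 and 0.026). For Mbnl1, Pot1b and Coq8a the fl/fl libraries with the drug were also below all 3 fl/fl libraries with DMSO. The choice of called increases favours this order. Pcdhga9, a protocadherin of a clustered family whose members share exons, was at 3.62, 68.9 and 6.44 CPM in tKO against 0.242 to 0.310 CPM in fl/fl, and its log2 fold change of 6.56 was 4.17 without tKO replicate 2 (edgeR adjusted p = 0.091). The sum over 22 entries of the family overlapped, at 35.3, 76.0 and 21.4 CPM in fl/fl and 29.1, 100.8 and 27.8 CPM in tKO.

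Some interferon-induced genes were called, and no called gene was found among 8 MHC class II, 7 neutrophil and 21 macrophage and monocyte genes. The medians of these lists were 0.44, 0.61 and 0.36, with 1, 1 and 5 genes below 0. Summed levels of the MHC class II genes were 2186 to 2685 CPM in fl/fl and 2759 to 4127 CPM in tKO. Those of the neutrophil genes were 36.1 to 47.2 CPM in fl/fl and 51.4 to 79.6 CPM in tKO. With DMSO 2, 3 and 7 genes of these lists were higher in tKO and none lower. Of 26 interferon response genes 2 rose and none fell, 5 had a fold change below 0, and the median was 0.34. Over all tested genes 0.888% were called higher. With DMSO 8 of the 26 were higher and 1 lower, with a median of 0.50. Gbp2, an interferon-induced GTPase, was at 27.2, 30.2 and 30.8 CPM in fl/fl and at 42.2, 59.6 and 85.4 CPM in tKO (log2 1.09, SE 0.24, edgeR adjusted p = 0.028). Ifit1, which binds viral RNA, was at 16.4, 14.3 and 10.2 CPM in fl/fl and at 17.3, 27.9 and 35.2 CPM in tKO (log2 0.98, SE 0.24, edgeR adjusted p = 0.044). Tgtp2, another interferon-induced GTPase, was at 5.89, 5.94 and 4.46 CPM in fl/fl and at 13.02, 14.0 and 27.6 CPM in tKO (log2 1.74, SE 0.27, edgeR adjusted p = 0.0085). Its near-identical copy Tgtp1 can share its reads, and the sum of both was 24.9 to 55.3 CPM in fl/fl and 59.9 to 140 CPM in tKO. Lgals3bp, a secreted galectin-binding protein outside these lists, rose by 1.41 (SE 0.36, edgeR adjusted p = 0.048). For Gbp2, Tgtp2 and Lgals3bp the fl/fl libraries with the drug were also below all fl/fl libraries with DMSO, whereas for Ifit1 they overlapped. A call of higher in tKO favours low values in the fl/fl libraries with the drug. Of 23 T, NK and B cell markers 1 rose and 1 fell, only 4 had a fold change below 0, and the median was 0.70. Their summed level overlapped, at 129 to 233 CPM in fl/fl and 150 to 235 CPM in tKO. With DMSO 2 were higher and none lower, with a median of 0.50. Cd3e, a subunit of the T cell receptor complex, was at 2.998, 1.85 and 1.94 CPM in fl/fl and at 5.22, 4.49 and 8.96 CPM in tKO (log2 1.45, edgeR adjusted p = 0.043). Jchain, the joining chain of secreted antibodies, was at 4.81, 29.8 and 19.5 CPM in fl/fl and at 3.62, 4.14 and 2.25 CPM in tKO (log2 -2.43, edgeR adjusted p = 0.025). Its level in fl/fl replicate 1 was close to the tKO values. In the list of cytokines and NF-κB targets, 1 of 26 genes was called, Nfkbia, an inhibitor of NF-κB (log2 -0.57, edgeR adjusted p = 0.045). The macrophage and monocyte markers stood at a summed 1326 to 1578 CPM in fl/fl and 1639 to 2016 CPM in tKO.

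Of 17 heat shock genes 13 had a fold change below 0 (median -0.19), with 1 called higher and 1 lower. With DMSO 9 of the 17 were lower in tKO and none higher. Hsp90aa1, the inducible HSP90 isoform, was at 53.1, 50.2 and 85.8 CPM in fl/fl and at 186, 217 and 192 CPM in tKO (log2 1.65, SE 0.39, edgeR adjusted p = 0.035). With DMSO it was lower in tKO (log2 -1.97, edgeR adjusted p = 0.0050), and the interaction was 3.63 (SE 0.55, edgeR adjusted p = 0.0019). The fl/fl libraries with DMSO stood at 121 to 325.5 CPM, above those with the drug, an order that the call with the drug favours. Hspb1, the small chaperone HSP27, was at 275, 385 and 324 CPM in fl/fl and at 173, 136 and 131 CPM in tKO (log2 -1.16, SE 0.28, edgeR adjusted p = 0.036). No other member of the 17 heat shock genes was called. The processed pseudogene Eef1a1-ps1 rose by 1.44, while its parent gene Eef1a1 was not called (log2 0.27, edgeR adjusted p = 0.53), and reads may be shared between them. No gene was called among 20 of basement membrane, 10 regulators of epithelial-mesenchymal transition, 33 of the cell cycle, 26 NRF2 targets, 21 of cholesterol synthesis, 26 entries of glycolysis and hypoxia and 22 of protein repair and the methyl cycle. The same held for markers of urothelium (9), erythroid cells (6) and the adrenal (3), and for 12 genes that differ by sex in kidney. The ribosomal RNA entry Rn18s-rs5 fell by 2.38, and the zinc finger gene Zfp959 by 2.25 on the log2 scale.

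The genotype differences with drug and with DMSO, which share no library, were nearly unrelated across genes (Pearson r = 0.059 over 19256 genes, which are not independent replicates). Of the 573 genes called with the drug, 169 were also called with DMSO, 29.5% of the former and 4.9% of the latter, and 137 of the 169 had opposite signs. The interaction called 1357 genes higher (7.05%) and 1309 lower (6.8%). Several of its largest values came from genes that were near 0 in some libraries of a group and high in others. Derpc was at 6.58, 0.0986 and 88.1 CPM in the tKO libraries with the drug and at 0.103 to 0.198 CPM in fl/fl. Bnip3l-ps was at 15.7 CPM in tKO replicate 2 with the drug and at no more than 0.0940 CPM in the other 2. Its interaction also holds a difference with DMSO, where replicates were close together. There it was at 15.2 to 16.25 CPM in fl/fl and 0.0814 to 0.0911 CPM in tKO (log2 -7.39, edgeR adjusted p = 0.0054). Nnt, encoding a mitochondrial transhydrogenase, has 2 overlapping entries in the table. The entry ENSMUSG00000116207 had 0 counts in all 3 fl/fl libraries and 939, 0 and 1550 in tKO. The entry ENSMUSG00000025453 had 1523, 1035 and 384 counts in fl/fl and 47, 315 and 51 in tKO. Reads of the same locus can be assigned to either entry, so no fold change is given.

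A small set of genes separated all 9 tKO from all 9 fl/fl libraries across sham, DMSO and drug; it was picked after the values were seen and not tested. It holds 29 genes higher in tKO (0.151%) and 24 lower (0.125%), of which 14 were called with the drug. The clearest were near 0 in fl/fl and present in each tKO library. Gm10599, a pseudogene entry, had 2, 0 and 0 counts in the fl/fl libraries with the drug and 106, 76 and 78 in tKO. Gm48207 had 0 counts in each fl/fl library with the drug and 93, 38 and 65 in tKO. Ifi208, a member of the interferon-inducible family with a pyrin domain, had 10, 1 and 10 counts in fl/fl and 68, 75 and 120 in tKO. Of the 29, 6 lie within 1 stretch of chromosome 4, in which 8 entries were tested. The stretch was drawn around these 6 genes, and the 4 of them found in the GRCm38 annotation span 42025429 to 42461867. Among the 24 lower genes were the chaperone genes Hsp90b1, Cct3 and Cct7 and the tetraspanin gene Cd63, of which Cd63 was called with the drug (log2 -0.49, edgeR adjusted p = 0.043). The direction in the libraries with the drug is fixed by this choice of genes.

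**Figure D5:**
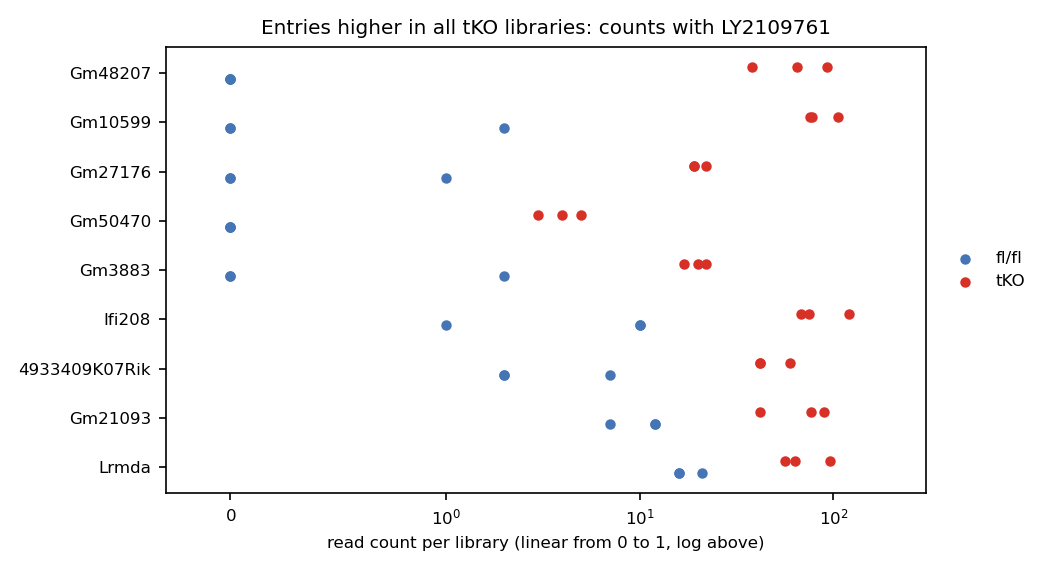
Read counts (horizontal, linear from 0 to 1 and log above) in the 3 fl/fl (blue) and 3 tKO (red) libraries with LY2109761, for the 9 entries higher in all 9 tKO libraries with a log2 fold change over 1.5. Gm10599 has at most 2 counts in fl/fl and at least 76 in tKO.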

How the data were processed

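Kidney mRNA libraries were prepared with an ABclonal kit from TRNzol-extracted RNA, per the labels' protocols. Per the submitters' processing notes, reads passed through fastp, HISAT2 and StringTie (versions not listed) with the build GRCm38. How reads were counted, with which annotation and strand setting, is not stated in the labels. The authors deposited whole-number counts and FPKM values per gene, for 57180 genes and 18 libraries. The table's gene positions equal those of GENCODE vM21 (GRCm38) for 1396 of 51884 shared gene identifiers, so positions printed here come from that annotation. All 36 value columns were matched to samples by name.

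Counts were fitted with edgeR 4.0.16 (R 4.3.3) by its quasi-likelihood test, with TMM scaling and filterByExpr. The fit held all 18 libraries in 6 groups, which share the estimate of spread. Among them, tKO sham replicates 2 and 3 had mitochondrial shares of 49.7% and 69.5% and TMM factors of 0.654 and 0.352. No fit left out either of these libraries alone. The p-values were adjusted over all 19256 genes by the Benjamini-Hochberg method. On simulated data with 200 changed genes added to this comparison, 48% of those changed 2-fold and 94% of those changed 4-fold were recovered, with 9 false calls among 18998 genes. The changed genes had a mean of at least 5 CPM. Simulated counts were drawn independently, without the length trend seen here or a deviation of a whole library. The rates therefore need not hold for the real libraries. Alternatives used limma 3.58.1, DESeq2 1.42.0, other scalings and filters, and each library left out. A gene-length correction was added after seeing the data. FPKM served only to compare levels between genes and to derive gene lengths. Library pairs within a group differed far beyond counting noise (chi-square per degree of freedom of 28.7 to 45.9), so no pair looked like a repeat deposit of the same library; this does not show that they are separate animals.

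Genes were named by rule: TGF-β pathway and injury genes, the 12 largest called changes in each direction with a mean of at least 5 CPM and no overlap between groups, up to 4 members of each of 39 lists by smallest p, and the 8 largest interactions in each direction. Some genes that the rule names are not reported here. Eef1a1, Cd63 and the entries that separate all libraries by genotype were named after their values were seen. The comparison and the lists were chosen with earlier results of these data known.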

Additional observations from a re-analysis of the deposited data

Results flagged for a closer look

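Genes below were flagged because their genotype difference with LY2109761 differed from that with DMSO by the interaction test (edgeR adjusted p under 0.05). Values are the log2 difference with the drug minus that with DMSO, and a negative value means that tKO stood lower relative to fl/fl with the drug. Groups of 3 libraries are too small for the check on single outlying samples.

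Among genes lower with the drug, the interaction was -5.70 for Eeig2, -5.12 for Golm2, -3.01 for Lum, -3.88 for Meg3 and -2.63 for Jchain. Immediate early and stress genes had -4.06 (Nr4a1), -2.69 (Gadd45g), -2.05 (Plk3), -1.80 (Per1), -1.69 (Dusp1), -1.64 (Ier2), -0.96 (Bax) and -0.91 (Ddit3). For the TGF-β responsive and matrix genes it was -1.21 for Id1, -1.20 for Id3 and -1.20 for Col1a1. The ribosomal entries had -3.85 (Rn18s-rs5), -2.04 (Rpl13), -1.61 (Rps18) and -1.29 (Rpl38), and the complex I genes Ndufa5 and Ndufa8 had -1.47 and -0.68. Sumo2, Ppp1cc and Lst1, which were not called with the drug alone, had -4.29, -3.40 and -3.24.

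Positive values were found for Havcr1 (1.37), Men1 (2.01), Gbp2 (2.02), Lgals3bp (2.18), Tgtp2 (2.34), Coq8a (3.10), Eef1a1-ps1 (3.15), Stim1 (3.53), Hsp90aa1 (3.63) and Pot1b (4.07). Adgrg1 (4.66), Cckar (4.96), Srcap (5.54), Crispld2 (5.77), Lrrc19 (6.39), Derpc (9.77) and Bnip3l-ps (12.9) had larger values, and in each of these at least 1 obstructed group held replicates far apart. An Nnt entry also passed this test, but it has 0 counts in all 3 fl/fl libraries with the drug and shares its locus with a second entry, so no value is given for it.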

How the results depend on the processing

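The number of genes called with the drug, 573, was 23 with column totals as the only scaling, 221 with a replicate block, 222 with no filter on low counts, 237 with only the 6 libraries compared, and 1471 with DESeq2's Wald test. Leaving out 1 library gave 14 to 761, the highest without tKO sham replicate 1. The interaction count, 2666, was 289 with column totals and 1624 with no filter, and 1340 to 3089 with 1 library left out. The DMSO count, 3451, was 682 with column totals and 1360 to 3939 with 1 library left out. The cause was not tested.

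Replicate numbers 1 and 3 are shared by both groups. Libraries of the same number did not deviate together across genes (correlations of -0.063 and -0.013). So few pairs cannot show whether a shared number marks a pairing or a batch. Of 48 called genes examined individually, 16 kept their call under the replicate block, and none reversed under any setting. RLE scaling, DESeq2 and a filter at 1 CPM kept all 48 calls.

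Some named genes that were not called changed sign. With the replicate block the log2 fold change was 0.034 for Havcr1, 0.231 for Tgfb2 and 0.658 for Tgfbr1. Tgfb2 was also at 0.01 with column totals and 0.001 with TMM without mitochondrially encoded genes, and Tgfbr1 at 0.53 with limma voom. With 1 library left out, values ranged from -0.192 to 0.254 for Col1a1, -0.2 to 0.855 for Smad2, -0.246 to 0.008 for Smad3, -0.05 to 0.116 for Tgfb1, -0.213 to 0.251 for Tgfb2 and -0.649 to 0.385 for Tgfbr1. Counting error limits genes with few counts, such as Gm48207.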
